A study of Mus musculus with 30 samples.

Results

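The extracellular matrix and integrin genes of the embryonic mouse dorsal pancreas were followed over 5 daily stages, at embryonic day 12.5 (e12.5), e13.5, e14.5, e15.5 and e16.5. The set lists 57 genes for collagens, laminins, other matrix proteins and integrin subunits. It was chosen by gene function, with earlier results of these data known. A gene entered when a probe set carried its symbol and no other, and where several did, the probe set with the highest mean over the 10 arrays of its chip stood for it. This gave 55 of the 15964 genes named on the arrays, 44 for matrix proteins and 11 for integrin subunits. Fbn1 and Itgb6 had no such probe set and were not analysed here. All embryos came from timed matings of NMRI mice, an outbred stock, with no mutation or treatment named, and only the dorsal pancreatic bud was dissected, with the buds of a litter pooled. The labels do not state how many litters or embryos entered a pool. RNA of a pool went into 2 labelling reactions, and each reaction onto the chips A, B and C of the Affymetrix MG-U74 version 2 set. There were thus 30 arrays, 2 for every stage on every chip. The values are log2 expression after robust multi-array averaging (RMA), so a difference of 1 is 2-fold.

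The extracellular matrix is the protein mesh that cells secrete around themselves. Fibrillar collagens, fibrillins and small proteoglycans fill the mesenchyme, while laminins, collagen IV, nidogens, perlecan and agrin form the basement membrane sheet under an epithelium or a vessel. Integrins are cell surface receptors made of an alpha and a beta chain that bind these proteins and tie them to the cytoskeleton. In the embryonic pancreas a branching epithelium grows into mesenchyme across such a basement membrane.

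RefSeq promoter windows on GRCm38.p6, each from 250 bases before to 50 bases after a listed start of a gene, were matched for 39 of the 55 members. The first window listed for a gene was used, and it need not lie at the gene's outer end. That of Itga9, at chr9:118711442-118711741, lies inside the gene at 118606709 to 118901003. The windows of Lamb3 and Itgav also lie inside their genes. The windows printed here are those of Tgfbi and Itga8, the members with the largest falls, of Npnt, the ligand of the integrin that Itga8 encodes, of Postn, the matrix gene with the largest rise, and of Col4a2. Each is written 5′ to 3′ on the strand of its gene, with letters that match a searched motif, or its reverse complement, in capitals. Tgfbi lies at chr13:56609336-56609635 on the plus strand, Itga8 at chr2:12301895-12302194 on the minus strand, Npnt at chr3:132950242-132950541 on the minus strand, Postn at chr3:54359017-54359316 on the plus strand and Col4a2 at chr8:11312555-11312854 on the plus strand.
Tgfbi: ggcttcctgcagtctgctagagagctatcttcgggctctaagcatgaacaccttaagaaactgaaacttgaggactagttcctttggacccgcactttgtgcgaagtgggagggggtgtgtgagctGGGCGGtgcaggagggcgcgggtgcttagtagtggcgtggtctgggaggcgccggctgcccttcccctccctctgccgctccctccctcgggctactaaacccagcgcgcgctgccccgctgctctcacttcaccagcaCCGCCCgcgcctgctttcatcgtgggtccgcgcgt
Itga8: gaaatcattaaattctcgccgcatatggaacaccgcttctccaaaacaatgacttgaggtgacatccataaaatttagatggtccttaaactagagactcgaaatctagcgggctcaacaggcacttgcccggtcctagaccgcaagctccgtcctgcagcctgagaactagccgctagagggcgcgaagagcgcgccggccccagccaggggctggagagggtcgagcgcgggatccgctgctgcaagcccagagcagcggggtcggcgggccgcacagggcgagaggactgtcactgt
Npnt: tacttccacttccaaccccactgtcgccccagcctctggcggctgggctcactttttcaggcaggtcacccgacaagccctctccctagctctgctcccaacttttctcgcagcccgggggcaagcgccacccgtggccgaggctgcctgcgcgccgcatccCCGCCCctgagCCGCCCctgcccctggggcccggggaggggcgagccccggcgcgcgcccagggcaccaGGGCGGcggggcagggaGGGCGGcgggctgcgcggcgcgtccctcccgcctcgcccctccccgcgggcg
Postn: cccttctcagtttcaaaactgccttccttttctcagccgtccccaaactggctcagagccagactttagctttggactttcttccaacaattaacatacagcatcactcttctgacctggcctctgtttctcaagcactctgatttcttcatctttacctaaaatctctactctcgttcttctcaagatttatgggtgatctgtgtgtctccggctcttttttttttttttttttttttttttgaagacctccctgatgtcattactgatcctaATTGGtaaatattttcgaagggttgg
Col4a2: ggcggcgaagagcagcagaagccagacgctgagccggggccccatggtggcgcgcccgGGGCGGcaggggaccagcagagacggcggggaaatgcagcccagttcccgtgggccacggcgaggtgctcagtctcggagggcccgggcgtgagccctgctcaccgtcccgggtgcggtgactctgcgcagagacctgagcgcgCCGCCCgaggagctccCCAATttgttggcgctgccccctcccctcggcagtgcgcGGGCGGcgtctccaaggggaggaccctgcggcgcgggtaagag
The searched motifs were the TATA box letters TATAAA, the CAAT box letters CCAAT, the GC box letters GGGCGG and the AP-1 site letters TGANTCA. Both strands were searched, and no matches of different motifs overlapped in the windows shown. GGGCGG was found in 26 of the 39 member windows (66.7%), against 35.9% of 27025 gene windows of the same length. CCAAT was found in 10 (25.6%, against 37.9% of all windows), TATAAA in 2 (5.13%, against 14.2%) and TGANTCA in 2 (5.13%, against 7.93%). Of the windows with TGANTCA, 1 was that of Itga9, inside the gene. The window of Npnt held 4 GGGCGG matches, that of Tgfbi 2 and that of Col4a2 3 with 1 CCAAT, while Postn held 1 CCAAT and Itga8 held none of the 4 motifs. Col4a2 and Col4a1 encode the partner chains of collagen IV and lie head to head on opposite strands of chromosome 8. Bases 11312777 to 11312854 of the printed window, 78 in all, are also in the window of Col4a1. A match describes the letters only and no factor's binding was measured.

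With stage, 19 of the 55 members fell and 5 rose, 43.6% in all against 28.9% of all genes. A straight line over embryonic day was fitted with limma to the 5 pool means of each probe set, its slope was multiplied by 4 days, and p-values were adjusted over all 36701 probe sets by the Benjamini-Hochberg method. At an adjusted p under 0.05, falls were 34.5% of the members against 17% of all 15964 genes, and rises were 9.09% of the members against 11.9% of all genes. The median change of the members was -0.305 on the log2 scale, against 0.02 over all genes. Among probe sets above the chip median alone, 15 of 43 members fell (34.9%, against 21.5% of 10533 genes). There 5 members rose (11.6%, against 12.5%). Without the e16.5 pool 9 members fell (16.4%, against 8.14% of all genes), and without the e13.5 pool 10 did (18.2%, against 11.8% of all genes). In 5 members (3.68% of all genes) the fall was also at least 2-fold, in Tgfbi, Itga8, Lama1, Fbn2 and Agrn. In 4 members (2.25% of all genes) the rise was at least 2-fold, in Itga6, Postn, Dcn and Itgb4. At every stage, 8 of the 55 probe sets were under their chip's median value, against 4909 of the 15964 over all genes, and since no detection calls came with the values, changes at such levels can be understated.

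**Figure D1:**
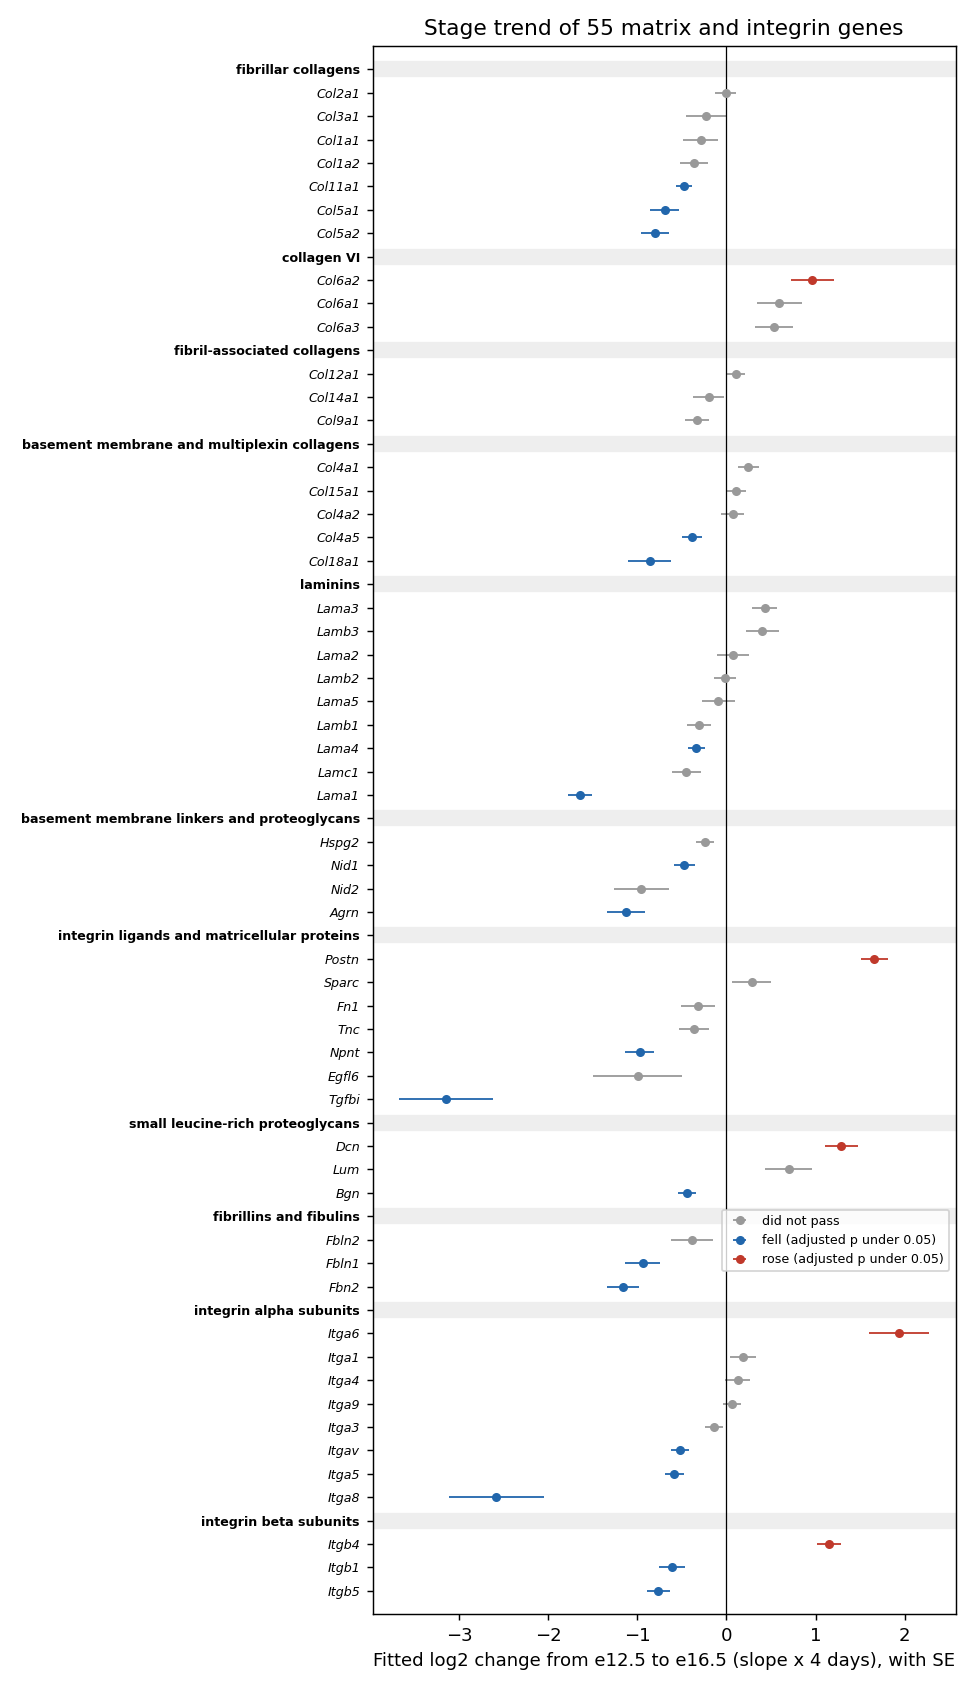
Fitted log2 change over 4 days (x axis, slope times 4, with its standard error) of 55 genes grouped by role and ordered by change within a role (y axis). Red points rose, blue points fell and grey points did not pass an adjusted p of 0.05. The integrin alpha subunits spread widely, with Itga6 at 1.94 and Itga8 at -2.58, while collagens and laminins lie between Lama1 at -1.64 and Col6a2 at 0.96.

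Because 1 pool stands behind both arrays of a stage, their spread measures labelling and hybridisation alone, and stage and pool cannot be told apart. Array medians ran at 5.71 to 5.76 on chip A, 5.26 to 5.31 on chip B and 3.99 to 4.02 on chip C, and correlations between the paired reactions were 0.996 to 0.998 across a chip's probe sets. For the 55 members the 2 reactions of a pool differed by a median of 0.06 and by at most 0.45. Levels of different probe sets are not compared, since each has its own probes. In whole buds, fewer cells of a type and less RNA per cell cannot be told apart.

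Integrin alpha8 pairs with beta1 on mesenchymal cells, and nephronectin (Npnt) in the basement membrane is its best known ligand. Itga8 and Npnt both fell, as did Tgfbi, whose matrix protein also binds integrins. Itga8 had log2 values of 8.08 and 7.96 at e12.5, 7.15 and 7.17 at e13.5, 5.65 and 5.49 at e14.5, 5.30 and 5.28 at e15.5 and 5.80 and 5.66 at e16.5. The arrays at e12.5 and e13.5 lay above those of the 3 later stages with no overlap, and the lowest stage was e15.5. The fitted change was -2.58 ± 0.54 (SE, n = 5 pools, limma adjusted p = 0.0128). Without the e12.5 pool it was -1.83 (limma adjusted p = 0.106), which no longer passed, and without the e16.5 pool -3.91. Itga8 lies on chromosome 2, 12106632 to 12301985 (GRCm38.p6). Its other probe sets, -0.40 ± 0.15 and 0.05 ± 0.09, did not pass and lay below the median of chip A at every stage.

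Npnt had log2 values of 7.33 and 7.39 at e12.5, 6.93 and 6.99 at e13.5, 6.59 and 6.74 at e14.5, 6.28 and 6.42 at e15.5 and 6.41 and 6.48 at e16.5. Each stage up to e15.5 lay below the one before it with no overlap of arrays, and e16.5 overlapped e15.5. The change was -0.97 ± 0.16 (SE, n = 5 pools, limma adjusted p = 0.00857), or 1.96-fold, and -0.74 with the e12.5 pool left out (limma adjusted p = 0.0581), which did not pass. A probe set on chip B, below the chip median at every stage, gave 0.27 ± 0.09, limma adjusted p = 0.0633. Npnt lies on chromosome 3, 132881745 to 132950291.

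Tgfbi (transforming growth factor beta induced) had the largest change among the members. Its log2 values were 8.54 and 8.65 at e12.5, 8.84 and 8.78 at e13.5, 7.01 and 7.18 at e14.5, 5.92 and 5.94 at e15.5 and 6.13 and 6.08 at e16.5. The first 2 stages were high and e15.5 and e16.5 were low, with e14.5 between them, and neither the high nor the low stages overlapped e14.5. The change was -3.15 ± 0.53 (SE, n = 5 pools, limma adjusted p = 0.0088), a fitted fall of 8.85-fold, and it ran between -3.89 and -2.74 when each pool was left out in turn, passing each time. The difference of pool means at e16.5 against e12.5 was -2.49. A further probe set, under relaxed probe rules and below the chip median at every stage, gave 0.12 ± 0.14, limma adjusted p = 0.56 and did not pass. Tgfbi lies on chromosome 13, 56609586 to 56639359.

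Egfl6, another matrix protein known in the mouse as a ligand of integrin alpha8, kept a different course. Its log2 values were 7.75 and 7.92 at e12.5, 7.88 and 7.94 at e13.5, 8.14 and 8.20 at e14.5, 8.02 and 8.13 at e15.5 and 6.53 and 6.48 at e16.5. The arrays of the first 4 stages lay close together, and both e16.5 arrays lay more than 1 log2 unit below every one of them. The straight line gave -0.996 ± 0.50 (SE, n = 5 pools, limma adjusted p = 0.182), which did not pass. At e16.5 against e15.5 the pool means differed by -1.57, with no test since each stage is 1 pool. Egfl6 was represented by an incomplete probe set on chip C.

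**Figure D2:**
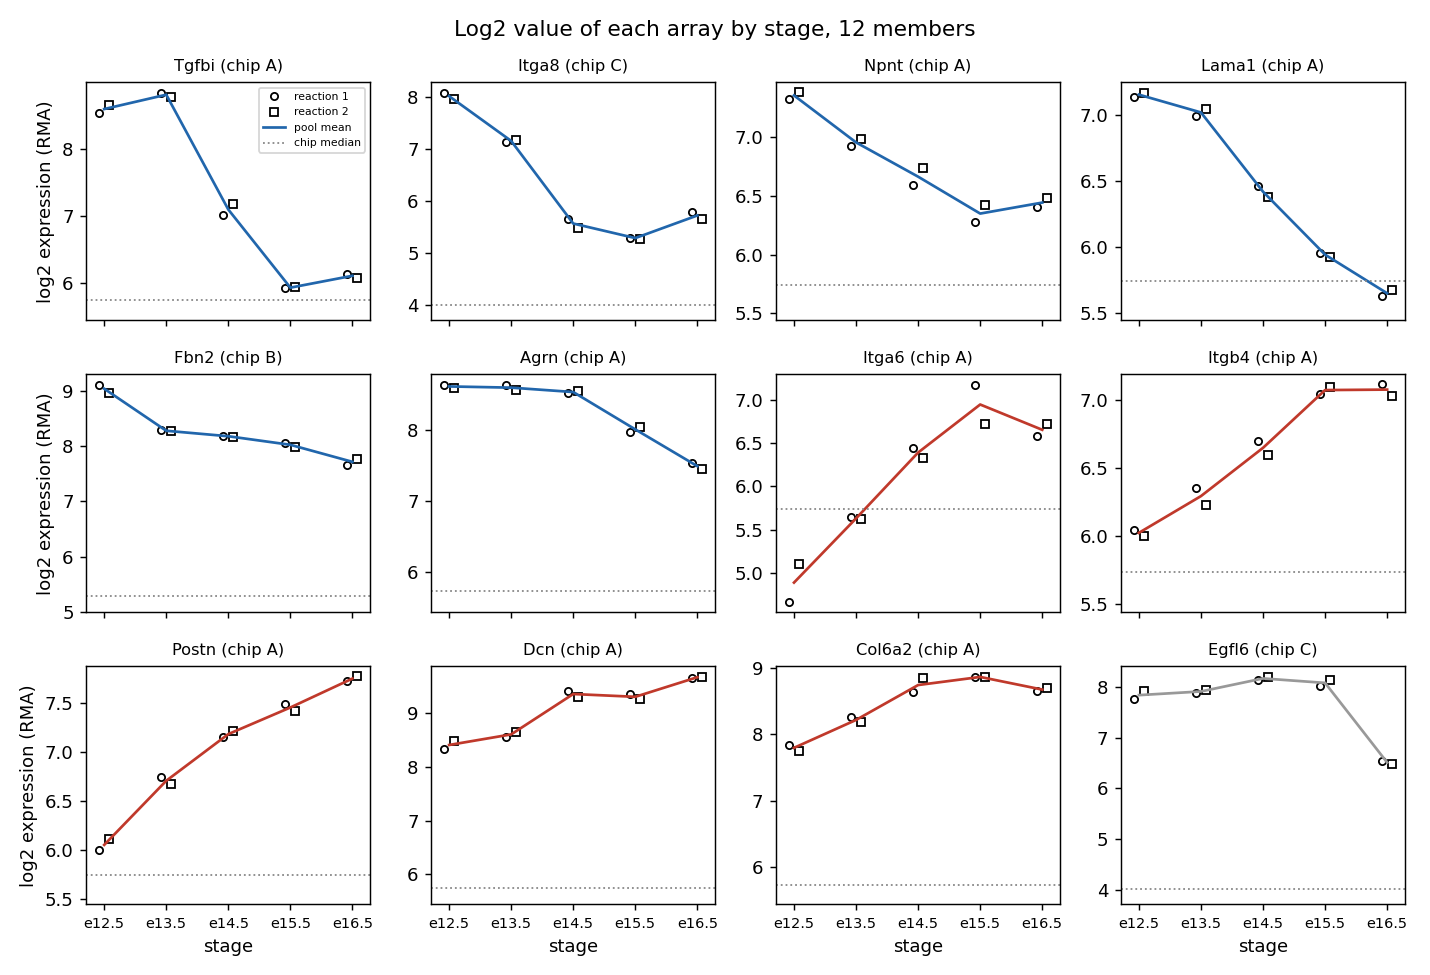
Log2 expression (y axis) by stage (x axis) of 12 members, with circles for reaction 1, squares for reaction 2, a line through the pool means (blue fell, red rose, grey did not pass) and a dotted line at the chip median. Tgfbi and Itga8 have their largest drop at e14.5, Itga6 and Itgb4 climb up to e15.5, and Egfl6 is low at e16.5 alone.

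Integrin alpha6 and beta4 form the laminin receptor of hemidesmosomes, which anchor epithelia to the basement membrane. Both genes rose. Itga6 had log2 values of 4.67 and 5.11 at e12.5, 5.64 and 5.62 at e13.5, 6.45 and 6.33 at e14.5, 7.17 and 6.72 at e15.5 and 6.58 and 6.72 at e16.5. The arrays of each stage up to e14.5 lay above those of the stage before, while e15.5 and e16.5 overlapped, and the first 2 stages lay below the chip median. The change was 1.94 ± 0.34 (SE, n = 5 pools, limma adjusted p = 0.01), but with the e12.5 pool left out it was 1.45 (limma adjusted p = 0.0641) and did not pass, and with the e16.5 pool left out 2.77. Itga6 lies on chromosome 2, 71786886 to 71858427.

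Itgb4 had log2 values of 6.05 and 6.001 at e12.5, 6.36 and 6.23 at e13.5, 6.70 and 6.59 at e14.5, 7.04 and 7.10 at e15.5 and 7.12 and 7.03 at e16.5. It was higher at each stage up to e15.5 with no overlap of arrays, and e15.5 and e16.5 overlapped. The change was 1.15 ± 0.13 (SE, n = 5 pools, limma adjusted p = 0.00254), and it passed without each pool in turn, at 1.06 to 1.40. Itgb4 lies on chromosome 11, 115974725 to 116008412. Each of these genes had 1 probe set. Of 8 epithelial markers listed 4 rose and 1, Cldn6, fell, while 11.9% of all genes rose and 17% fell. Of the 4 keratin genes among them, Krt18 rose by 2.08 ± 0.09, Krt19 by 1.49 ± 0.17 and Krt8 by 1.18 ± 0.17, while Krt7 (-0.13 ± 0.28) did not pass, nor did Cldn4 (-0.48 ± 0.38) or Epcam (-0.14 ± 0.10). The part of epithelial cell number in the rise of Itga6 and Itgb4 was not tested.

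Among the other integrin chains, Itgb1, Itgb5, Itga5 and Itgav fell. Itgb1, the common beta chain that pairs with most alpha subunits listed here, had log2 values of 10.14 and 10.28 at e12.5, 10.14 and 10.22 at e13.5, 10.27 and 10.15 at e14.5, 9.79 and 9.75 at e15.5 and 9.66 and 9.64 at e16.5. The first 3 stages overlapped and lay above e15.5, and e16.5 was lowest with no overlap. The change was -0.61 ± 0.15 (SE, n = 5 pools, limma adjusted p = 0.029), and 2 further probe sets of Itgb1 also fell, by 0.44 and 0.55 on the log2 scale. Itgb5, a partner of the alphav chain, had pool means of 8.59 at e12.5, 8.64 at e13.5, 8.27 at e14.5, 8.03 at e15.5 and 7.93 at e16.5 and a change of -0.77 ± 0.13 (SE, n = 5 pools, limma adjusted p = 0.00848). Its other probe set did not pass (0.17 ± 0.13, limma adjusted p = 0.389).

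Itga5, the alpha chain of the fibronectin receptor, had pool means of 5.82 at e12.5, 5.85 at e13.5, 5.64 at e14.5, 5.47 at e15.5 and 5.28 at e16.5 and changed by -0.59 ± 0.11 (SE, n = 5 pools, limma adjusted p = 0.0116). Itgav, the alphav chain, had pool means of 8.49 at e12.5, 8.40 at e13.5, 8.34 at e14.5, 8.06 at e15.5 and 8.01 at e16.5 and changed by -0.53 ± 0.10 (SE, n = 5 pools, limma adjusted p = 0.0137). Both were lowest at e16.5. Without the e16.5 pool none of Itgb1 (-0.52, limma adjusted p = 0.174), Itga5 (-0.51, limma adjusted p = 0.0774) and Itgav (-0.54, limma adjusted p = 0.062) passed. Itgb1 also missed the threshold without the e13.5 pool (-0.60, limma adjusted p = 0.0804) and without the e15.5 pool (-0.56, limma adjusted p = 0.0638), and Itgav without the e13.5 pool (-0.52, limma adjusted p = 0.0507). Under cyclic loess scaling Itgb1 gave -0.43 (limma adjusted p = 0.079), and -0.56 with the second e12.5 array left out (limma adjusted p = 0.0503). Itgb5 passed without each pool. With the mean of all its probe sets, Itgb5 gave -0.30 (limma adjusted p = 0.087) and Itgav -0.20 (limma adjusted p = 0.124). Of the collagen receptor chain gene Itga1 (0.18 ± 0.15), the laminin receptor chain gene Itga3 (-0.14 ± 0.10), the fibronectin and VCAM1 receptor chain gene Itga4 (0.13 ± 0.14) and the tenascin receptor chain gene Itga9 (0.06 ± 0.10), none passed on the probe set that stood for it. Itga1 passed without the e12.5 pool (0.54, limma adjusted p = 0.0209). Itga4 lay below the chip median at every stage on all 4 of its probe sets. A second probe set of Itga9 fell (-1.94 ± 0.34, limma adjusted p = 0.00612), and so did the mean of its probe sets (-0.94, limma adjusted p = 0.00915). On the probe sets that stood for them, 2 of 11 integrin subunits rose and 5 fell, while 11.9% of all genes rose and 17% fell.

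Laminins are trimers of an alpha, a beta and a gamma chain. Of 9 laminin genes 2 fell and none rose, while 17% of all genes fell and 11.9% rose. Lama1, the alpha1 chain of early embryonic basement membranes, had log2 values of 7.14 and 7.17 at e12.5, 6.999 and 7.05 at e13.5, 6.46 and 6.38 at e14.5, 5.96 and 5.93 at e15.5 and 5.62 and 5.67 at e16.5. Every stage lay below the one before it with no overlap of arrays, and e16.5 lay below the chip median. The change was -1.64 ± 0.14 (SE, n = 5 pools, limma adjusted p = 0.000892), a fitted fall of 3.12-fold, between -1.84 and -1.54 with each pool left out, and passing each time. Lama1 lies on chromosome 17, 67697127 to 67822645.

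Lama4, the alpha4 chain of vessel and mesenchymal basement membranes, changed by -0.34 ± 0.09 (SE, n = 5 pools, limma adjusted p = 0.034) on a probe set with relaxed rules on chip C. A probe set on chip A rose (0.65 ± 0.17, limma adjusted p = 0.0386), so the direction for Lama4 turned with the probe set, and the third did not pass. With the e16.5 pool left out the first probe set gave -0.17 (limma adjusted p = 0.322), without the e12.5 pool -0.41 (limma adjusted p = 0.0841) and without the e13.5 pool -0.35 (limma adjusted p = 0.0771). It also missed the threshold without the second array of e12.5 (-0.28), of e14.5 (-0.34) or of e15.5 (-0.33). Its pool means were 9.71 at e12.5, 9.64 at e13.5, 9.64 at e14.5, 9.57 at e15.5 and 9.33 at e16.5.

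The alpha3 and beta3 chains belong to the laminin that hemidesmosomes bind. Lama3 had pool means of 4.40 at e12.5, 4.48 at e13.5, 4.59 at e14.5, 4.50 at e15.5 and 4.92 at e16.5, all below the chip median, and a change of 0.43 ± 0.14 (SE, n = 5 pools, limma adjusted p = 0.0676). Lamb3 had pool means of 5.70 at e12.5, 5.54 at e13.5, 5.58 at e14.5, 5.70 at e15.5 and 6.12 at e16.5 and a change of 0.40 ± 0.18 (SE, n = 5 pools, limma adjusted p = 0.16). Neither passed, and both were highest at e16.5. The second probe set of Lamb3 did pass, at 1.27 ± 0.20, limma adjusted p = 0.00712. Without the e12.5 pool the first probe set passed too, at 0.75 (limma adjusted p = 0.0484), and so did Lama3 without the e15.5 pool, at 0.54 (limma adjusted p = 0.0207).

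Lamc1, the gamma1 chain shared by most laminins, had pool means of 8.39 at e12.5, 8.62 at e13.5, 8.44 at e14.5, 8.15 at e15.5 and 8.06 at e16.5 and a change of -0.45 ± 0.16 (SE, n = 5 pools, limma adjusted p = 0.0872). Lamb1, the beta1 chain, had pool means of 7.57 at e12.5, 7.77 at e13.5, 7.59 at e14.5, 7.44 at e15.5 and 7.35 at e16.5 and a change of -0.30 ± 0.13 (SE, n = 5 pools, limma adjusted p = 0.142). Both were highest at e13.5, and without the e12.5 pool both passed, at -0.79 (limma adjusted p = 0.0185) and -0.57 (limma adjusted p = 0.0397). Lama2, the alpha2 chain known from muscle, changed by 0.08 ± 0.18, Lama5, an alpha chain of epithelial basement membranes, by -0.09 ± 0.19 and Lamb2 by -0.02 ± 0.13, and none of these passed. Of the other probe sets of Lamb2, 2 of 3 fell, by 0.91 and 0.27 on the log2 scale.

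Linker proteins join the laminin and collagen IV networks. Agrin (Agrn), a heparan sulfate proteoglycan of basement membranes, had log2 values of 8.63 and 8.58 at e12.5, 8.62 and 8.55 at e13.5, 8.52 and 8.53 at e14.5, 7.96 and 8.04 at e15.5 and 7.53 and 7.44 at e16.5. The first 3 stages were close together, e15.5 was lower and e16.5 lowest, with no overlap. The change was -1.13 ± 0.22 (SE, n = 5 pools, limma adjusted p = 0.0134), and -0.75 without the e16.5 pool (limma adjusted p = 0.098). Its 3 other probe sets did not pass, at -0.60 ± 0.18, 0.35 ± 0.11 and -0.05 ± 0.07. Agrn lies on chromosome 4, 156165290 to 156197533.

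Nidogen genes gave Nid1 at -0.47 ± 0.12 (SE, n = 5 pools, limma adjusted p = 0.0318) and Nid2 at -0.95 ± 0.31 (SE, n = 5 pools, limma adjusted p = 0.0683). Nid1 lay below the chip median at every stage, with pool means of 4.14 at e12.5, 4.07 at e13.5, 3.78 at e14.5, 3.69 at e15.5 and 3.74 at e16.5, and missed the threshold without the e12.5 pool (-0.43, limma adjusted p = 0.157), the e13.5 pool (-0.44, limma adjusted p = 0.0931) or the e15.5 pool (-0.43, limma adjusted p = 0.064). It also missed it without the second e12.5 array (-0.38), the first e14.5 array (-0.47) or the second e16.5 array (-0.42). Nid2 had log2 values of 6.72 and 6.85 at e12.5, 7.23 and 7.24 at e13.5, 7.01 and 6.94 at e14.5, 6.42 and 6.47 at e15.5 and 5.94 and 6.03 at e16.5. It was highest at e13.5 and lowest at e16.5, with no overlap of those stages, and without the e12.5 pool its change passed, at -1.71 (limma adjusted p = 0.00347), as it did without the first e12.5 array (-1.01, limma adjusted p = 0.0486). Hspg2, which encodes perlecan, had a change of -0.24 ± 0.10 (SE, n = 5 pools, limma adjusted p = 0.136) and did not pass.

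Of 5 basement membrane and multiplexin collagen genes 2 fell, while 17% of all genes did. Col18a1, whose protein carries endostatin, had log2 values of 9.59 and 9.59 at e12.5, 9.91 and 9.89 at e13.5, 9.65 and 9.67 at e14.5, 9.22 and 9.16 at e15.5 and 8.84 and 8.89 at e16.5. It was highest at e13.5 and lowest at e16.5, and no 2 of the stages e13.5, e15.5 and e16.5 overlapped. The change was -0.86 ± 0.24 (SE, n = 5 pools, limma adjusted p = 0.0434). It did not pass without the e13.5 pool (-0.72, limma adjusted p = 0.0914), the e15.5 pool (-0.84, limma adjusted p = 0.0904) or the e16.5 pool (-0.57, limma adjusted p = 0.298), nor under cyclic loess scaling (-0.68, limma adjusted p = 0.0704) or with the mean of its probe sets (-0.74, limma adjusted p = 0.0608), and it was -1.42 without the e12.5 pool. Of its 4 other probe sets 1 fell (-0.999 ± 0.28, limma adjusted p = 0.0437), while 2 gave -1.02 ± 0.33 and -1.06 ± 0.34 and did not pass.

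Col4a5, on the X chromosome, lay below the chip median with pool means of 5.52 at e12.5, 5.55 at e13.5, 5.50 at e14.5, 5.32 at e15.5 and 5.15 at e16.5. It changed by -0.39 ± 0.11 (SE, n = 5 pools, limma adjusted p = 0.046) and lost its call without the e13.5 pool (-0.36), the e14.5 pool (-0.39), the e15.5 pool (-0.39) or the e16.5 pool (-0.26). The call was also lost with arrays centred on their median (-0.35, limma adjusted p = 0.0578), and when 1 array was left out, if it was the second e12.5 array, either e13.5 array, the first e14.5 array or the second array of e15.5 or e16.5, at -0.39 to -0.31. The main collagen IV chains had pool means of 9.13 at e12.5, 9.32 at e13.5, 9.46 at e14.5, 9.41 at e15.5 and 9.40 at e16.5 for Col4a1 and 8.49 at e12.5, 8.58 at e13.5, 8.70 at e14.5, 8.72 at e15.5 and 8.51 at e16.5 for Col4a2. Neither passed (0.25 ± 0.12 and 0.07 ± 0.13), nor did Col15a1 (0.11 ± 0.11), a collagen next to vessel and muscle basement membranes. The 3 of them lay lowest at e12.5 among the stages.

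Of 7 fibrillar collagen genes 3 fell, while 17% of all genes did. The 3 were those of the minor fibril collagens V and XI that are built into the core of collagen fibrils. Col5a2 had log2 values of 8.83 and 8.96 at e12.5, 8.94 and 8.89 at e13.5, 8.89 and 8.77 at e14.5, 8.43 and 8.38 at e15.5 and 8.10 and 8.20 at e16.5. Its first 3 stages overlapped, and e15.5 and e16.5 lay below them and apart from each other. The change was -0.80 ± 0.16 (SE, n = 5 pools, limma adjusted p = 0.0144), and -0.62 without the e16.5 pool (limma adjusted p = 0.113). A second probe set, on chip B and below its median at every stage, also fell, by 1.20.

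Col5a1 had log2 values of 8.36 and 8.37 at e12.5, 8.50 and 8.50 at e13.5, 8.28 and 8.39 at e14.5, 8.07 and 8.02 at e15.5 and 7.71 and 7.75 at e16.5. It was highest at e13.5 and lowest at e16.5. The change was -0.69 ± 0.16 (SE, n = 5 pools, limma adjusted p = 0.0264). Without the e13.5 pool (-0.62, limma adjusted p = 0.0704), the e15.5 pool (-0.70, limma adjusted p = 0.0547) or the e16.5 pool (-0.46, limma adjusted p = 0.195) it did not pass, and with the e12.5 pool left out it was -1.04. The other probe sets of Col5a1 did not pass, at -0.69 ± 0.23 (limma adjusted p = 0.059), -0.37 ± 0.15 and 0.03 ± 0.09. Col11a1 lay below the chip median at every stage, with pool means of 5.13 at e12.5, 5.04 at e13.5, 4.93 at e14.5, 4.74 at e15.5 and 4.68 at e16.5 and a change of -0.48 ± 0.09 (SE, n = 5 pools, limma adjusted p = 0.0119), and it missed the threshold without the e12.5 pool (-0.51, limma adjusted p = 0.0567).

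The major fibrillar collagens did not pass. Col1a1 had log2 values of 11.03 and 11.15 at e12.5, 11.10 and 11.07 at e13.5, 11.25 and 11.28 at e14.5, 11.20 and 11.09 at e15.5 and 10.66 and 10.74 at e16.5. Its e14.5 arrays were the highest and its e16.5 arrays the lowest, and the change was -0.29 ± 0.20 (SE, n = 5 pools, limma adjusted p = 0.324). Col1a2 (-0.36 ± 0.16) and Col3a1 (-0.23 ± 0.23) likewise had their lowest pool mean at e16.5, after a highest at e13.5 for Col1a2 and at e14.5 for Col3a1. The further probe sets of Col3a1 had the same highest and lowest stages, but those of collagen I did not. A second probe set of Col1a1 (0.14 ± 0.16) was lowest at e14.5, at 9.65, with 9.88 at e16.5. A second probe set of Col1a2 (0.21 ± 0.11) was highest at e16.5, at 7.95, and neither passed. On the probe set that stood for it, Col1a2 passed without the e12.5 pool (-0.70, limma adjusted p = 0.0288). Col2a1, the cartilage collagen, lay below the chip median at every stage and changed by -0.01 ± 0.12.

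Collagen VI forms beaded filaments near cell surfaces from 3 chains. The genes for all of them had positive changes, of which 1 passed, while 11.9% of all genes rose. Col6a2 had log2 values of 7.85 and 7.75 at e12.5, 8.26 and 8.18 at e13.5, 8.64 and 8.84 at e14.5, 8.86 and 8.87 at e15.5 and 8.65 and 8.70 at e16.5. Its e12.5 arrays were lowest, e13.5 came next and the 3 later stages lay above both with no overlap. The change was 0.96 ± 0.24 (SE, n = 5 pools, limma adjusted p = 0.032), and it missed the threshold without the e12.5 pool (0.60, limma adjusted p = 0.215), the e13.5 pool (0.96, limma adjusted p = 0.0783) or the e15.5 pool (0.87, limma adjusted p = 0.071), and was 1.49 without the e16.5 pool. Col6a1, on the same chromosome 10, had pool means of 8.43 at e12.5, 8.98 at e13.5, 9.29 at e14.5, 9.18 at e15.5 and 9.08 at e16.5 and Col6a3 of 7.78 at e12.5, 8.37 at e13.5, 8.48 at e14.5, 8.38 at e15.5 and 8.44 at e16.5. These changed by 0.60 ± 0.25 (SE, n = 5 pools, limma adjusted p = 0.128) and 0.53 ± 0.21 (SE, n = 5 pools, limma adjusted p = 0.115), and neither passed, although the second probe set of each did, at 0.93 for Col6a1 and 0.37 for Col6a3.

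Fibril-associated collagens sit on the surface of collagen fibrils, and none of the 3 genes passed. Col9a1 had pool means of 7.34 at e12.5, 7.54 at e13.5, 7.36 at e14.5, 7.22 at e15.5 and 7.08 at e16.5 and a change of -0.33 ± 0.14 (SE, n = 5 pools, limma adjusted p = 0.12). It was highest at e13.5, and passed without the e12.5 pool (-0.61, limma adjusted p = 0.0309). Its second probe set, on chip B and below the chip median throughout, fell by 1.99. Col14a1 changed by -0.20 ± 0.17 and Col12a1, below the chip median at every stage, by 0.10 ± 0.11. Without the e16.5 pool Col14a1 passed, at -0.58 (limma adjusted p = 0.0298).

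Periostin (Postn), a matricellular protein of mesenchyme that binds integrins and is related in sequence to the Tgfbi protein, went the other way from Tgfbi. Its log2 values were 5.99 and 6.11 at e12.5, 6.74 and 6.67 at e13.5, 7.15 and 7.22 at e14.5, 7.49 and 7.42 at e15.5 and 7.73 and 7.77 at e16.5. Every stage lay above the one before it with no overlap of arrays. The change was 1.66 ± 0.15 (SE, n = 5 pools, limma adjusted p = 0.00119), a fitted rise of 3.16-fold, and it passed without each pool, at 1.36 to 1.88. Postn lies on chromosome 3, 54359267 to 54391041, and had 1 probe set.

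Of the other matricellular genes and ligands none passed on the probe set that stood for it. Fibronectin (Fn1) had pool means of 7.82 at e12.5, 7.74 at e13.5, 7.71 at e14.5, 7.27 at e15.5 and 7.66 at e16.5 and a change of -0.32 ± 0.19 (SE, n = 5 pools, limma adjusted p = 0.267), with its lowest mean at e15.5. Sparc, an acidic collagen-binding protein, had pool means of 8.32 at e12.5, 8.02 at e13.5, 8.21 at e14.5, 8.12 at e15.5 and 8.62 at e16.5 and a change of 0.28 ± 0.22 (SE, n = 5 pools, limma adjusted p = 0.372), with its highest mean at e16.5. A second, incomplete probe set of Sparc, on chip B and below the chip median at every stage, rose (0.48 ± 0.11, limma adjusted p = 0.0145). Tenascin C (Tnc) lay below the chip median at every stage and changed by -0.37 ± 0.17.

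Decorin (Dcn), lumican (Lum) and biglycan (Bgn) are small proteoglycans that bind collagen fibrils. Dcn had log2 values of 8.33 and 8.49 at e12.5, 8.56 and 8.66 at e13.5, 9.42 and 9.30 at e14.5, 9.36 and 9.26 at e15.5 and 9.67 and 9.68 at e16.5. The first 2 stages lay below the 3 later ones, e16.5 was highest, and e14.5 overlapped e15.5. The change was 1.29 ± 0.19 (SE, n = 5 pools, limma adjusted p = 0.00515), and it passed without each pool, at 1.21 to 1.38. Dcn lies on chromosome 10, 97479500 to 97518163, next to Lum at 97565501 to 97572703.

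Lum had pool means of 6.39 at e12.5, 6.61 at e13.5, 7.30 at e14.5, 6.83 at e15.5 and 7.16 at e16.5 and a change of 0.70 ± 0.26 (SE, n = 5 pools, limma adjusted p = 0.0986), which did not pass. It was highest at e14.5, and without that pool the change was 0.70 (limma adjusted p = 0.0113). Bgn had pool means of 9.15 at e12.5, 9.17 at e13.5, 9.02 at e14.5, 8.80 at e15.5 and 8.78 at e16.5 and fell by 0.44 ± 0.10 (limma adjusted p = 0.0258). Of its 2 other probe sets 1 fell, by 0.64. The call was lost without the e12.5 pool (-0.56), the e13.5 pool (-0.40) or the e16.5 pool (-0.48), under cyclic loess scaling (-0.28, limma adjusted p = 0.13) and with the mean of its probe sets (-0.29, limma adjusted p = 0.0572).

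Fibrillins and fibulins build microfibrils and elastic fibres. Fbn2, the fibrillin of embryonic tissue, had log2 values of 9.11 and 8.97 at e12.5, 8.29 and 8.27 at e13.5, 8.18 and 8.17 at e14.5, 8.06 and 7.99 at e15.5 and 7.66 and 7.77 at e16.5. Every stage lay below the one before it with no overlap of arrays, and the widest gap was that of e13.5 below e12.5. The change was -1.16 ± 0.18 (SE, n = 5 pools, limma adjusted p = 0.0038), between -1.31 (without e13.5) and -0.74 (without e12.5) with each pool left out, and passing each time. Its probe set can match similar sequences, and 2 of its 3 other probe sets also fell, by 0.71 and 1.13.

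Fbln1 had log2 values of 9.78 and 9.83 at e12.5, 9.78 and 9.77 at e13.5, 9.71 and 9.73 at e14.5, 9.39 and 9.34 at e15.5 and 8.84 and 8.83 at e16.5. The first 3 stages were close together, and e15.5 and e16.5 were lower with no overlap. The change was -0.94 ± 0.20 (SE, n = 5 pools, limma adjusted p = 0.0174), and 2 of 3 other probe sets fell too, by 0.50 and 0.55. It did not pass without the e13.5 pool (-0.92, limma adjusted p = 0.0531) or the e16.5 pool (-0.55, limma adjusted p = 0.102). Fbln2 had pool means of 8.92 at e12.5, 8.49 at e13.5, 8.46 at e14.5, 8.83 at e15.5 and 8.26 at e16.5, lowest at e16.5, and a change of -0.39 ± 0.24 (SE, n = 5 pools, limma adjusted p = 0.277) that did not pass.

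Between neighbouring stages, changes of at least 2-fold were few. At e14.5 against e13.5, 2 members were lower by at least 2-fold (0.0251% of all genes), Tgfbi by 1.72 and Itga8 by 1.59 on the log2 scale. At e15.5 against e14.5, Tgfbi was lower again, by 1.17 (0.0752% of all genes). At e16.5 against e15.5, Egfl6 was lower, by 1.57 (0.132% of all genes). No member was 2-fold lower at e13.5 against e12.5 (0.0626% of all genes). None was 2-fold higher at e13.5 (0.125% of all genes), e14.5 (0.157%), e15.5 (0.47%) or e16.5 (0.313%), each against the stage before. Since each stage is 1 pool, the steps have no test.

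The step at e15.5 against e14.5 held the most members with a lower value, 44 of 55 (80%), against 51.8% of all genes. The median step there was -0.12 for the members and -0.01 for all genes. Of the 24 passing members 9 had their largest step there, 8 of them falling, and 9 had it at e14.5 against e13.5. The largest step was not counted over all passing genes, so these counts have no share to stand beside. At e16.5 against e12.5 as a whole, 4 members were higher by at least 2-fold (2.2% of all genes), Itga6, Postn, Dcn and Itgb4. Tgfbi, Itga8, Lama1, Egfl6, Fbn2 and Agrn were lower by at least 2-fold, 6 members against 4.25% of all genes.

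**Figure D3:**
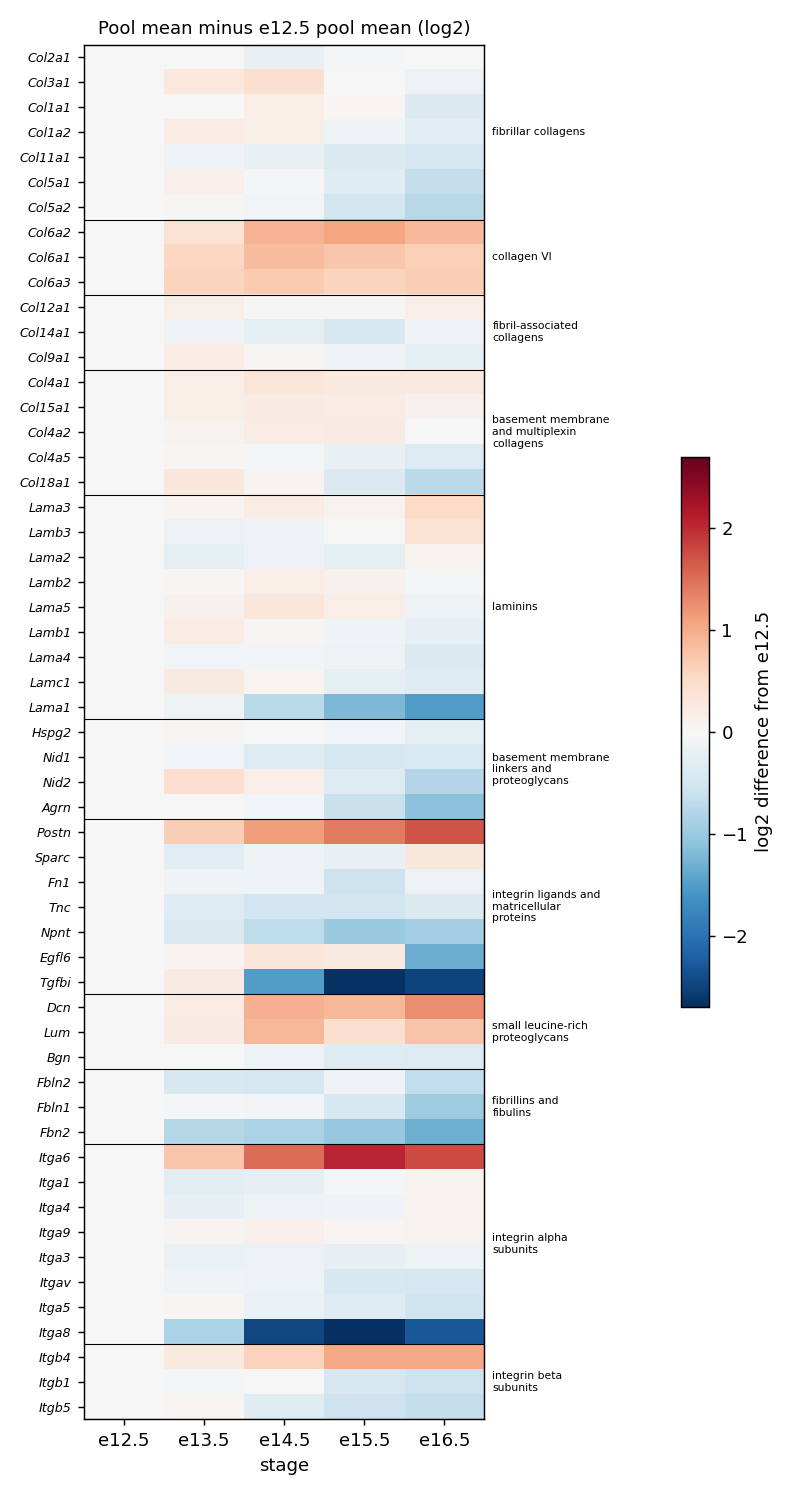
Pool mean at each stage minus the e12.5 pool mean (colour, log2) for 55 members in rows, by role, and 5 stages in columns. Tgfbi and Itga8 turn deep blue at e14.5 and e15.5, Itga6, Postn and Dcn turn red with stage, and several collagen and laminin rows are pale red at e13.5 or e14.5 before they turn blue.

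Several members had their highest or lowest pool mean inside the series, although no curve passed on the probe sets that stood for them. The curve did pass on a further probe set of Col3a1 (0.90, limma adjusted p = 0.0333) and of Col18a1 (0.69, limma adjusted p = 0.0449), with a high middle. With a low middle it passed on a further probe set of Col14a1 (-0.44, limma adjusted p = 0.0402) and of Itga9 (-0.77, limma adjusted p = 0.0242). A curve term, fitted with limma beside the line, gave 0 of 55 members at an adjusted p under 0.05 (0.651% of all genes) and 27 members at an unadjusted p under 0.05 (49.1%, against 16.4% of all genes). Of these 27, 18 had a high middle (32.7% of the members, against 9.33% of all genes) and 9 a low middle (16.4%, against 7.07%). The smallest adjusted p was 0.0655, for Col6a1, whose fitted middle lay 0.49 above the mean of its fitted ends. The same value was 1.04 for Egfl6, 0.65 for Itga6, 0.59 for Nid2 and -1.11 for Itga8. The count of 0 turned on the pools: it was 4 without e12.5 (0.633% of all genes passed there), 3 without e13.5 (1.27% of all genes), 16 without e15.5 (6.79% of all genes) and 7 without e16.5 (4.56% of all genes). It was 1 without the second e12.5 array (0.846% of all genes).

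Of the 55 members 36 had further probe sets, 60 in all, and these often gave other values. When the probe set that stood for the gene passed, 9 further ones passed in the same direction, 21 did not pass and 1, of Lama4, passed in the opposite one. When it did not pass, 8 further ones did and 21 did not. Of the 55 probe sets that stood for genes 14 carried a design suffix for shared, relaxed or incomplete probes, among them those of Fbn2, Fbln1, Itgb1, Itgav, Lama4 and Egfl6. Of the 60 others, 25 lay below their chip's median at every stage. Itga9 differed most among those that passed: a second probe set on chip B fell (-1.94 ± 0.34, limma adjusted p = 0.00612), while the one that stood for the gene gave 0.06 ± 0.10. For Tgfbi, Npnt and Itgb5 the falls rest on 1 of 2 probe sets. They rest on 1 of 3 for Itga8, Itgav and Lama4, and on 1 of 4 for Agrn and Col5a1. Postn, Dcn, Itga6, Itgb4, Col6a2, Lama1 and Egfl6 had no second probe set.

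**Figure D4:**
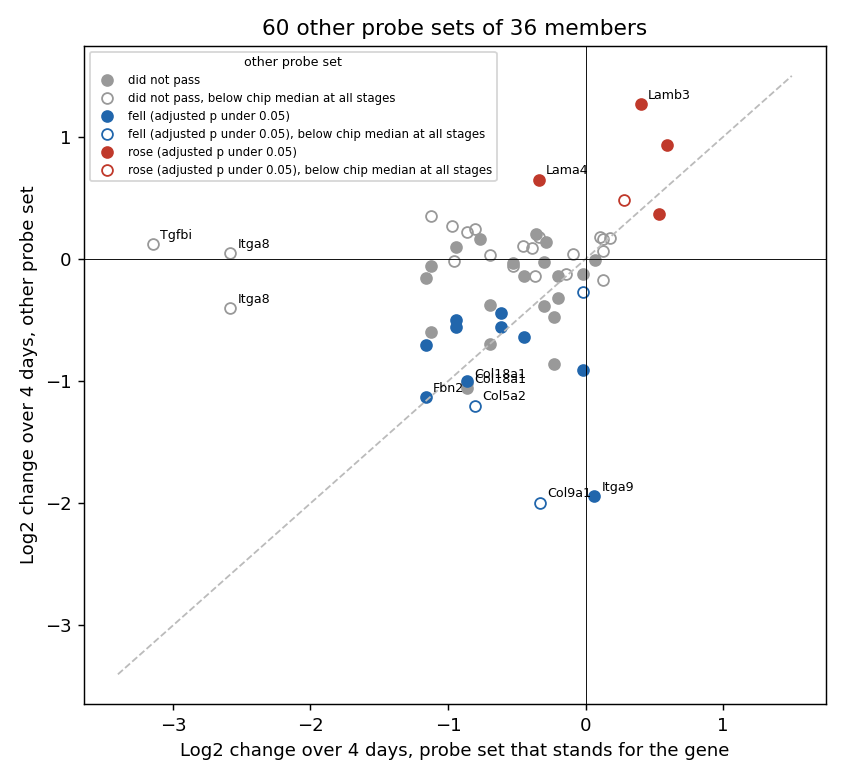
Log2 change over 4 days of 60 further probe sets (y axis) against that of the probe set standing for the same gene (x axis), with a dashed line where both are equal. Open points lay below the chip median at all stages; red rose, blue fell and grey did not pass. Lama4 lies on opposite sides of zero with both passing, and Itga9 falls on its second probe set alone.

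Genes that make, cut or bind the matrix were also read, and their counts stand beside 17% of all genes falling and 11.9% rising. Of 17 measured genes of collagen synthesis and crosslinking 7 fell and 1 rose. Serpinh1, the collagen chaperone, fell by 1.25 ± 0.16, Sec23a, a coat protein of vesicles that carry procollagen, by 0.95 ± 0.10, and P3h1, a prolyl 3-hydroxylase, by 0.54 ± 0.12. P4ha2, a prolyl 4-hydroxylase subunit, rose by 0.54 ± 0.10. Of 22 proteases and inhibitors 6 fell, led by the metalloproteases Adam19 (-1.59 ± 0.11) and Adam12 (-0.78 ± 0.12) and the inhibitors Reck (-1.47 ± 0.17) and Timp2 (-0.62 ± 0.18), and 2 rose.

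Of 41 other matrix genes 9 fell and 7 rose, while 17% of all genes fell and 11.9% rose. Emilin1 (-1.97 ± 0.23), an elastic fibre glycoprotein, and Smoc2 (-1.83 ± 0.22), a Sparc relative, fell, as did Nell2 (-1.72 ± 0.28), while Matn4 (1.74 ± 0.25), a matrilin, rose. Of 23 other integrin subunits and matrix receptors 5 fell and 3 rose. The cell surface proteoglycan genes Gpc6 (-2.49 ± 0.24), Gpc1 (-1.21 ± 0.14) and Gpc3 (-1.18 ± 0.13) fell and the hyaluronan receptor gene Cd44 (0.78 ± 0.15) rose. Of 18 genes of the complex that ties integrins to actin 4 fell and none rose: Parva (-0.70 ± 0.15), Vcl (-0.67 ± 0.12), Lims1 (-0.65 ± 0.09) and Actn4 (-0.36 ± 0.10), for parvin alpha, vinculin, PINCH1 and an alpha actinin.

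Marker genes of the cells in the bud moved over the same stages, in which 17% of all genes fell and 11.9% rose. Of 9 mesenchyme markers 5 fell and none rose, with mean log2 levels over the list of 5.85 at e16.5 and 6.68 at e12.5. Tcf21 (-2.57 ± 0.22), Snai2 (-1.99 ± 0.19), Pdgfra (-1.67 ± 0.22) and Pdgfrb (-1.19 ± 0.14) had the largest slopes of the 5. Vim (0.28 ± 0.09), Foxf1 (0.03 ± 0.09), Nkx3-2 (-0.14 ± 0.115) and Barx1 (-0.29 ± 0.14) did not pass. Vim and Nkx3-2 lay below the chip median at every stage, as did Twist1 (-0.72 ± 0.13), which fell. Of 9 endothelial markers 2 fell and 1 rose, and the list's mean level was 6.77 at e16.5 and 6.75 at e12.5. Of 7 neural crest and Schwann cell markers 4 fell, with mean levels of 6.89 at e16.5 and 7.92 at e12.5. Of 8 smooth muscle and pericyte markers 2 fell, and of 6 mesothelial markers 2 fell and 2 rose. All 8 acinar enzyme and factor genes rose, with mean levels of 12.60 at e16.5 and 7.57 at e12.5, and of 5 pancreas identity genes 3 rose, among them Ptf1a with pool means of 9.16 at e16.5 and 7.22 at e12.5. Of 8 endocrine markers 4 rose and 1 fell, of 8 macrophage markers 1 rose and 2 fell, and of 6 red cell genes 2 rose and 3 fell. The part of these marker changes in the changes of the matrix and integrin genes was not tested.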

How the data were processed

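Gene expression was measured on arrays in dorsal pancreas of NMRI embryos, pooled by litter and labelled in 2 reactions per pool, per the labels. The 2 arrays of a stage on each chip were taken as 1 pool. The deposited log2 expression values, 1 per probe set on each array, are RMA output according to the submitters' processing notes. Base 2 was taken from the span of the values, and RMA's quantile step removes differences in overall brightness. Software versions, scan dates and probe positions are not given in the sources used here. Chips were treated as normalized separately.

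Of 36701 probe sets, 29131 had 1 symbol, 724 several and 6846 were unnamed here; names came from GEO's platform annotation, updated through Entrez identifiers to RefSeq GRCm38.p6, which gave the coordinates. The slope over embryonic day was fitted to 5 pool means per chip with limma 3.58.1 (R 4.3.3, 3 residual degrees of freedom, empirical Bayes) and the curve term beside it. On simulated chip A data (12422 probe sets, 200 changed), 80% of 1.5-fold and 100% of 2-fold straight-line changes were recovered, with 9 and 11 false calls. All simulated probe sets shared 1 pool SD (0.0873) and 1 labelling SD (0.0878). Recovery is thus overstated for probe sets with a wider scatter about the line, such as those of Nid2 (SE 0.31), Egfl6 (SE 0.50) and Itga8 (SE 0.54). Steps and e16.5 against e12.5 have 1 pool a side, so they were counted at 2-fold with no test. Alternatives were other scalings, filters, priors and adjustments, single arrays, a replicate block, and leaving out arrays, pools or reaction numbers, the last of these added after seeing the data. The reaction numbers were checked as pairs: of 30 stage pairs, 1 had a correlation of deviations over 0.1 (range -0.18 to 0.11), so they were not taken to pair arrays. Members and gene lists were chosen with earlier results of these data known. All members are named by role; passing ones have stage values, slope, SE and adjusted p, and other lists up to 4 passing genes by largest slope. No sample was left out.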

Additional observations from a re-analysis of the deposited data

How the results depend on the processing

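With 1 pool per stage, every p-value rests on the scatter of 5 pools about a line, and changes that come in a step can miss it. The 24 passing members kept their direction wherever they had a value under the 26 alternatives that used the same probe set or the mean of a gene's probe sets (20 of them had one among probe sets above the chip median), and Dcn, Fbn2, Itgb4, Lama1, Postn and Tgfbi passed in all 26. Over the values recomputed, 13 turned sign with a pass on either side, 74 lost and 48 gained a pass, 32 turned sign with no pass in either fit, and 1311 kept direction and side; the cause was not tested. Entering the 10 arrays singly gave 11 rising members (20%, against 23.2% of all genes), 24 with a passing curve (43.6%, against 11.7%), and 7957 rising and 7538 falling probe sets, against 3886 and 4825 with pool means. The reaction number as a replicate block gave 11 rising members (20%, against 22.2% of all genes) and 23 with a passing curve (41.8%, against 10.1%). It gave 7580 rising and 7313 falling probe sets. Arrays of a pool are not separate samples, so these fits on single arrays count technical spread as replication. Above the chip median alone, 2145 probe sets rose. Rising probe sets numbered 1874 without the e12.5 pool, 2207 without e13.5 and 1275 without e16.5, where 2278 fell. Members falling were 10 without e13.5 and 9 without e16.5, where the share of all genes falling was 11.8% and 8.14%, against 17% with all pools. The curve passed in 1 member with adjustment within each chip (1.18% of all genes). It passed in 4, 3, 16 and 7 without the e12.5, e13.5, e15.5 and e16.5 pools. With 1 array or 1 reaction number left out it passed in 0 to 3 (0.0877% to 0.846% of all genes). A 1.5-fold minimum gave 13 member steps (5.91%, against 1.81% of the steps of all genes), and at e16.5 against e12.5 it gave 8 members higher (14.5%, against 5.68% of all genes) and 14 lower (25.5%, against 12.5%). With the second reaction left out throughout, Col11a1, Col4a5, Lama4, Nid1 and Itgb1 did not pass. With adjustment within each chip Lama4 did not pass (limma adjusted p = 0.0563), with median centring Lama3 passed (0.47, limma adjusted p = 0.0492) and with cyclic loess Col4a1 passed (0.42, limma adjusted p = 0.0299). The mean of its probe sets turned Itga9 to -0.94, which passed (limma adjusted p = 0.00915). Other probe sets turned Agrn to 0.35, Col18a1 to 0.23, Col5a1 to 0.033, Col5a2 to 0.25, Fbln1 to 0.10, Itga8 to 0.047, Itga9 to -1.94, Itgb5 to 0.17, Lama4 to 0.65 and 0.18, Npnt to 0.27 and Tgfbi to 0.12.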
